A study of Mus musculus with 24 samples.

Results

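The amyloid precursor family and its adaptors were followed in the mouse hippocampus as 9 genes among the 55471 genes of the count table. They are the precursors App, Aplp1 and Aplp2, the X11 adaptors Apba1, Apba2 and Apba3, and the Fe65 adaptors Apbb1, Apbb2 and Apbb3. The 9 genes were chosen by family membership, with results of the same 12 mice already known, and each was found in the table by its Ensembl identifier.

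The RNA came from the hippocampus of 12 female mice between 3 and 6 months of age on a C57BL/6 background (C57BL/6J in the study's methods), with 3 mice in each of 4 groups. CBP-ifKOs carried a floxed Crebbp gene and a Camk2a-creERT2 transgene, which removes part of the gene in forebrain excitatory neurons after tamoxifen and leaves a truncated protein. Control littermates lacked the creERT2 transgene and received the same 5 intragastric doses of tamoxifen at 20 mg/mL. Each genotype was housed either in a standard cage (SC) or in an enriched environment (EE), a larger box with toys and running wheels. The tissue was the whole hippocampus and also holds interneurons and glia, in which the transgene is not active. In bulk tissue, fewer cells of a type and less RNA per cell cannot be told apart.

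Deposited library totals were between 26874015 and 27971488 counts in the 6 control mice and between 28582210 and 37448388 in the 6 CBP-ifKOs. None of the 148570 nonzero counts of the CBP-ifKOs was odd, against 86334 of 158233 in controls. The counts of the CBP-ifKOs may therefore be doubled, which the sources used here do not state. Halved, their totals would be between 14291105 and 18724194 counts, and results were also computed with these. Crebbp, the targeted gene, was between 71.0 and 81.9 CPM (read counts scaled to library size with TMM) in SC-housed controls and between 49.7 and 51.2 CPM in SC-housed CBP-ifKOs. In EE it was between 70.0 and 77.4 CPM in controls and between 44.4 and 48.0 CPM in CBP-ifKOs, so the genotype groups did not overlap in either housing. Ep300, which encodes the close relative p300, overlapped between genotypes in both housings. All 28 marker genes of 7 brain cell types were detected in every group. A control mouse in EE, replicate 1, stood apart with a summed level of 1245 CPM over 4 markers of the choroid plexus, against between 34.9 and 61.0 CPM in the other 11 mice.

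APP, APLP1 and APLP2 are membrane proteins that span the membrane once and are cut by secretases, first outside the membrane and then within it. APP alone of the family contains the amyloid beta peptide. The short tail of these proteins inside the cell is bound by the X11 proteins and by the Fe65 proteins. X11 proteins can slow APP processing, and the neuronal ones link to the vesicle release machinery. Fe65 proteins can carry the released APP tail to the nucleus and bind the acetyltransferase Kat5 (Tip60). CBP, encoded by Crebbp, is itself a lysine acetyltransferase and a coactivator of CREB, a factor that binds the cAMP response element.

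Of the 9 genes, Apba2 and Apbb1 were lower in CBP-ifKOs in both housings, and their promoters are shown because the text turns on them. The promoter of Apba1, the paralog of Apba2 with the nearest level, is shown beside them. The bases lie before the transcript start in RefSeq (GRCm38.p6), 5′ to 3′ on the strand of the gene, and capitals mark the half-site of the cAMP response element, TGACG on one strand or CGTCA on the other. For Apba2 they are chr7:64501456-64501705 on the plus strand, and for Apba1 chr19:23758626-23758875 on the plus strand. For Apbb1 only the outer 90 of 250 bases are given, chr7:105581652-105581741 on the minus strand, because 162 of the 250 lie within an exon of a longer transcript in GENCODE. That exon also holds the last 2 bases printed, which are part of the marked half-site.
Apba2: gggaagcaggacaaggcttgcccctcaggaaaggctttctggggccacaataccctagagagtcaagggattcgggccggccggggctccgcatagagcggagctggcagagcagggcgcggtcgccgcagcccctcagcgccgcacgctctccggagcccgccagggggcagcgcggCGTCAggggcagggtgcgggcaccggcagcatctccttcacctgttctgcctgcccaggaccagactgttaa
Apbb1: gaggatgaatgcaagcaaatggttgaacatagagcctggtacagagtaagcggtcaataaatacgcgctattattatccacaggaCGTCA
Apba1: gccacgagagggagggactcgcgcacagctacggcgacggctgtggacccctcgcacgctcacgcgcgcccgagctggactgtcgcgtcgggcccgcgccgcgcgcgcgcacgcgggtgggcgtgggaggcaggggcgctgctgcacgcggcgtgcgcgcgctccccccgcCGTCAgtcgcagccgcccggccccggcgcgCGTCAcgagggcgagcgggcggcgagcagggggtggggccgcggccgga

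RefSeq windows of 250 bases before a start were found for 8 of the 9 genes, 12 windows in all. The half-site was present in 3 of the 12 windows (25.0%), which are those printed for Apba1, Apba2 and Apbb1, and in 17.8% of the 32851 windows of all genes. The other window of Apba2, chr7:64501888-64502137, and the other windows of Apbb1, chr7:105568778-105569027 and chr7:105569319-105569568, lie at other starts of these genes and hold 0 half-sites. In that order, 189, 171 and 198 of their 250 bases lie within GENCODE exons of the same gene. The half-site began 72 bases before the start in Apba2, 165 bases before it in Apbb1, and 79 and 49 bases before it in Apba1. The full palindrome of the element, TGACG followed by TCA, was in none of the 12 windows and in 1.55% of all windows. The share of G and C was 68.8% in the window with the half-site for Apba2, 59.2% in that for Apbb1 and 81.6% in that for Apba1. Over the 12 windows it ran from 49.6% in Apba3 to 81.6%, and the median of all windows was 52.4%. The part of base content in the half-site counts was not tested. The letters describe these windows and no binding was measured.

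The precursors were the most abundant group. App (ENSMUSG00000022892, chr16:84949685-85173766, minus strand, GRCm38) had a mean of 1708 ± 92.6 CPM (SD, n = 3) in SC-housed controls. Aplp1 (ENSMUSG00000006651, chr7:30434982-30445535, minus strand) had 1102 ± 93.4 CPM and Aplp2 (ENSMUSG00000031996, chr9:31149557-31211815, minus strand) 583.1 ± 10.9 CPM in the same mice. These are levels not corrected for gene length.

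Levels were compared between genes per kilobase in the 6 control mice of both housings. With the gene lengths deposited in the table, the order was Aplp1 at 371 ± 26.6 CPM per kb (SD, n = 6), App at 132 ± 5.34, Aplp2 at 99.9 ± 2.12, Apbb1 at 84.5 ± 5.35, Apba2 at 57.2 ± 2.24, Apba1 at 28.5 ± 0.450, Apbb3 at 13.4 ± 0.926, Apba3 at 5.92 ± 0.572 and Apbb2 at 4.28 ± 0.2999 CPM per kb. No pair of neighbors in this order overlapped over the 6 mice. The deposited length joins all annotated exons, and for App it is 12996 bases against 3176 bases in the principal transcript. With principal transcript lengths, chosen after that difference was seen, App came first at 539 ± 21.9 CPM per kb (SD, n = 6) and Aplp1 second at 477 ± 34.2 CPM per kb, and Apbb2 at 13.9 ± 0.978 CPM per kb stood above Apba3 at 7.54 ± 0.729 CPM per kb. The remaining order was the same under both lengths. Apbb1 was thus the most abundant adaptor per length, and Apba2 the most abundant X11 gene, whichever length was used.

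**Figure D1:**
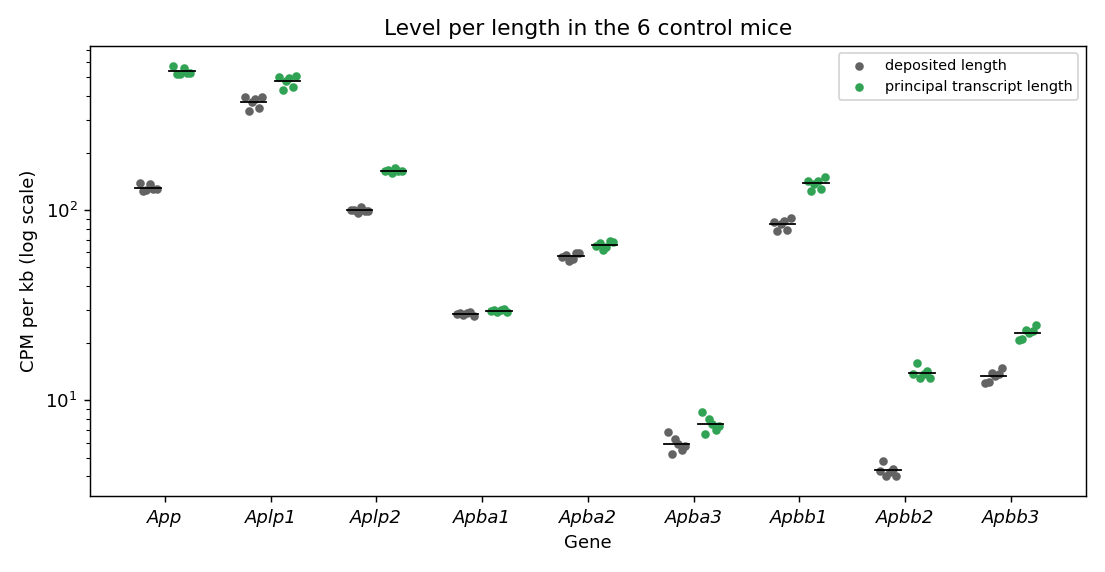
Level of each gene in CPM per kb, on a log axis, in the 6 control mice (points, with the mean as a line), with the deposited gene length in grey and the principal transcript length in green. Aplp1 leads at 371 CPM per kb with deposited lengths and App at 539 CPM per kb with principal transcript lengths, while Apbb1 and Apba2 lead their families under both.

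None of the precursors passed the threshold in any comparison with edgeR or DESeq2, and none had an unadjusted p below 0.05 in edgeR. App was at 1814, 1646 and 1663 CPM in SC-housed controls, 1656, 1659 and 1652 CPM in SC-housed CBP-ifKOs, 1781, 1677 and 1681 CPM in EE-housed controls, and 1666, 1685 and 1652 CPM in EE-housed CBP-ifKOs. The highest value of each housing was a control mouse, and the genotype groups overlapped in both. Aplp1 ranged from 1000.3 to 1196 CPM and Aplp2 from 571 to 617 CPM over the 12 mice, again with overlapping genotype groups in both housings. The log2 changes with genotype in SC were -0.03 for App (SE 0.0486), -0.04 for Aplp1 (SE 0.0593) and 0.05 for Aplp2 (SE 0.0456). In EE they were -0.02 for App, with a 95% interval from -0.12 to 0.09, -0.04 for Aplp1, from -0.18 to 0.10, and 0.07 for Aplp2, from -0.04 to 0.18.

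Among the X11 adaptors, Apba2 (ENSMUSG00000030519, chr7:64501706-64753878, plus strand) was lower in CBP-ifKOs. Apba2 encodes a neuronal X11 protein that binds the APP tail. In SC it was at 216, 223 and 206 CPM in the controls and at 177, 178 and 178 CPM in the CBP-ifKOs. In EE it was at 213, 228 and 227 CPM in the controls and at 164, 163 and 164 CPM in the CBP-ifKOs. All 6 CBP-ifKOs lay below all 6 controls, and the CBP-ifKOs in EE lay below those in SC. The log2 change with genotype was -0.26 in SC (SE 0.0514), a level that fell by 16.7%. In EE the log2 change was -0.42 (95% interval from -0.55 to -0.29, SE 0.0574), where the level fell by 25.3% with an adjusted p of 0.00273 by edgeR's quasi-likelihood test. The EE values were also known when the genes were picked, so this p is a description and no independent test.

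Apba1 (ENSMUSG00000024897, chr19:23758887-23949596, plus strand), the X11 gene whose protein also binds Cask, was at 196, 198 and 194 CPM in SC-housed controls and at 201, 182 and 176 CPM in SC-housed CBP-ifKOs. In EE it was at 198, 201 and 192 CPM in controls and at 181, 186 and 180 CPM in CBP-ifKOs. The genotype groups overlapped in SC and did not in EE, where the log2 change was -0.09 (95% interval from -0.21 to 0.03) with an adjusted p of 0.395 by edgeR. Apba3 (ENSMUSG00000004931, chr10:81266960-81273246, plus strand), the X11 gene found in many tissues, was the least counted of the 9, with between 400 and 782 deposited counts per mouse, the highest in a CBP-ifKO. Its level ranged from 15.1 to 20.1 CPM with overlapping groups, and its log2 change was 0.13 in SC (SE 0.101) and 0.19 in EE (95% interval from -0.02 to 0.40).

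Among the Fe65 adaptors, Apbb1 (ENSMUSG00000037032, chr7:105558483-105581653, minus strand), the neuronal Fe65 gene, was lower in CBP-ifKOs. In SC it was at 383, 342 and 372 CPM in the controls and at 302, 310 and 298 CPM in the CBP-ifKOs. In EE it was at 386, 348 and 404 CPM in the controls and at 295, 306 and 302 CPM in the CBP-ifKOs. All 6 CBP-ifKOs again lay below all 6 controls, with the second control replicate nearest to them in each housing. The log2 change was -0.26 in SC (SE 0.0539), where the level fell by 16.3%. In EE the log2 change was -0.31 (95% interval from -0.46 to -0.17, SE 0.0657), where the level fell by 19.5% with an adjusted p of 0.0218 by edgeR. As for Apba2, this p does not account for the choice of the gene. This call in EE was lost when control replicate 3 or any of the 3 CBP-ifKOs was left out, with adjusted p between 0.064 and 0.0992 and log2 changes between -0.33 and -0.26.

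**Figure D2:**
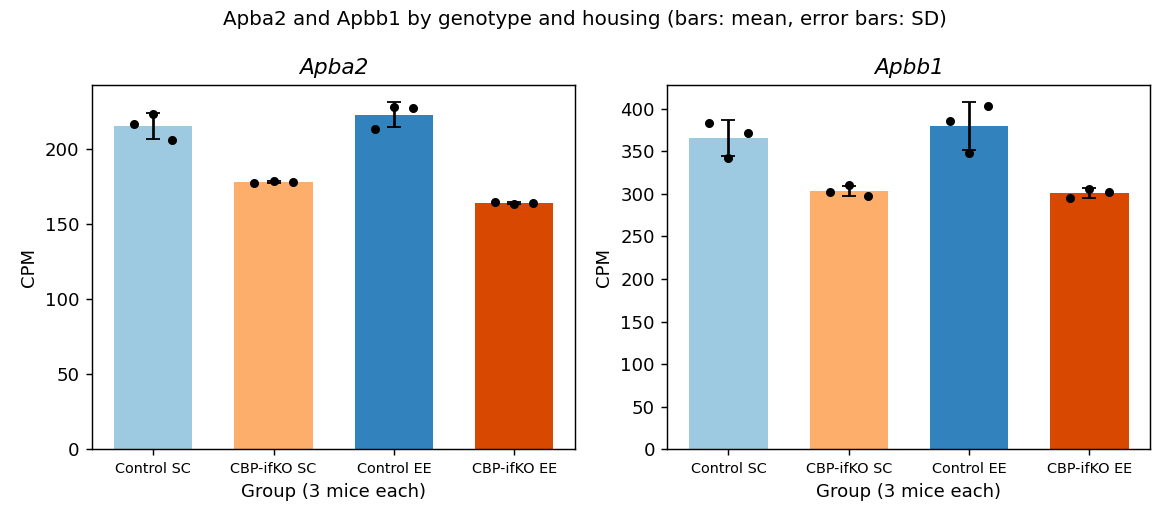
Apba2 and Apbb1 in CPM by group, with bars for the mean, error bars for the SD and a point for each of the 3 mice. The CBP-ifKOs sit between 163 and 178 CPM for Apba2 and between 295 and 310 CPM for Apbb1, below every control mouse.

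Apbb2 (ENSMUSG00000029207, chr5:66298703-66618784, minus strand) and Apbb3 (ENSMUSG00000117679) encode the other Fe65 proteins. Apbb2 ranged from 41.99 to 52.9 CPM over the 12 mice with overlapping groups, and its log2 change was -0.12 in SC (SE 0.0786) and -0.01 in EE (95% interval from -0.15 to 0.13). Apbb3 was at 42.8, 43.5 and 48.2 CPM in SC-housed controls and at 49.7, 52.1 and 49.7 CPM in SC-housed CBP-ifKOs, which all lay above them, with a log2 change of 0.18 (SE 0.0646). In EE its groups overlapped and the log2 change was 0.10 (95% interval from -0.06 to 0.26). Apbb3 shares 4.37% of its exonic bases with Slc35a4 on the other strand, and smaller or like shares were found for App (0.87%), Apba1 (4.2%) and Apba3 (4.53%), whereas Apba2 and Apbb1 share none.

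Counted over the family, 2 of 9 genes had an adjusted p below 0.05 in SC, against 5.52% of the 17532 genes tested, and both were decreased, against 4.02% of all genes. The SC comparison is among those with which the genes were picked, so that this count is a description. The calls of both genes in SC were lost when any 1 CBP-ifKO was left out, and that of Apbb1 also without control replicate 1 or 3, with log2 changes between -0.27 and -0.26 for Apba2 and between -0.27 and -0.22 for Apbb1 in those fits. In EE the same 2 of 9 genes passed, against 4.57% of 17625 genes, or 3.53% for decreases. Both genes were decreased in both housings, as were 2.35% of the 17250 genes tested in both. Values of both housings were known when the genes were picked, so that the second housing is no independent support for the first. In SC 2 genes had all CBP-ifKOs below all controls and 1 had them above, against 15.0% and 10.8% of all genes. In EE 3 genes, Apba1 with the former 2, had all CBP-ifKOs below, against 15.1% of all genes. The median log2 change of the 9 genes was -0.04 in SC and -0.02 in EE, against -0.00 and 0.01 over all genes tested. The adjusted p-values cover all genes and do not account for the choice of the family.

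**Figure D3:**
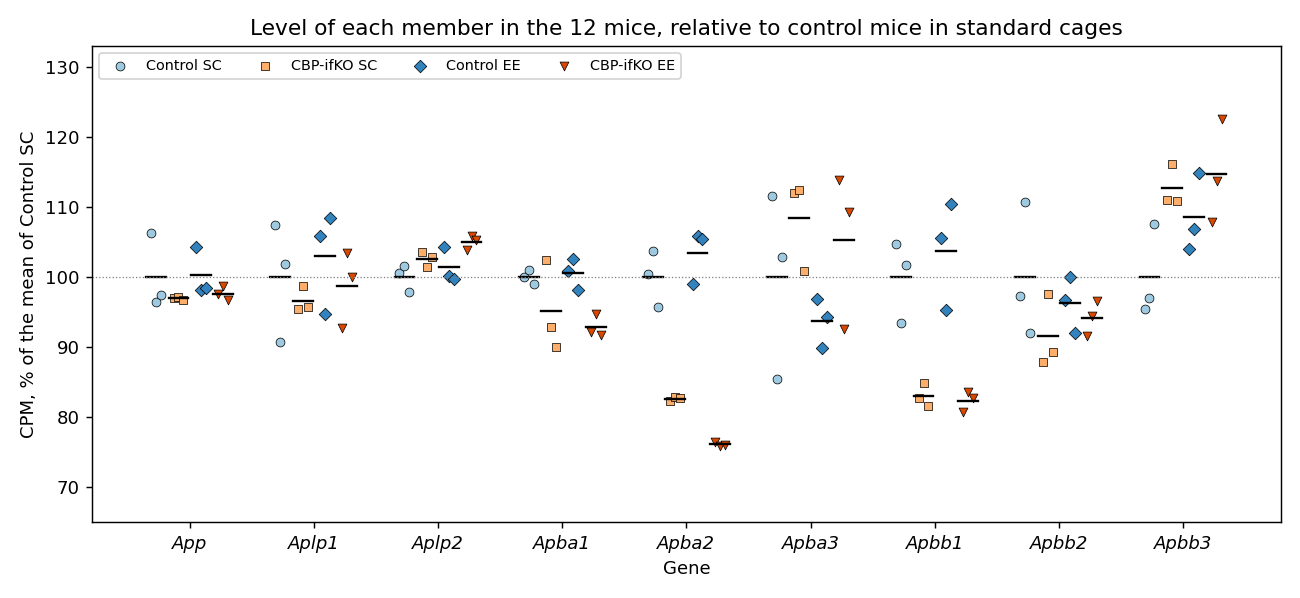
CPM of each gene in each mouse as a percentage of the mean of the 3 SC-housed controls, with the mean of each group as a black line. For Apba2 and Apbb1 the CBP-ifKOs of both housings (orange) lie below all controls (blue), whereas App, Aplp1 and Aplp2 stay near 100.

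Ratios inside a library do not depend on how libraries are scaled. For each 100 counts of App, SC-housed controls had between 11.9 and 13.6 counts of Apba2 and SC-housed CBP-ifKOs between 10.7 and 10.8. In EE the ranges were 11.96 to 13.6 in controls and 9.68 to 9.90 in CBP-ifKOs. Apbb1 had between 20.8 and 22.4 counts per 100 of App in SC-housed controls and between 18.03 and 18.7 in SC-housed CBP-ifKOs, and in EE between 20.8 and 24.004 and between 17.7 and 18.3. The genotypes did not overlap in either ratio.

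Shares within a family restate these levels, so that a lower share of 1 gene raises those of the others. Per length of the principal transcript, Apba2 made up between 62.4% and 64.8% of the X11 family in SC-housed controls and between 57.7% and 60.8% in SC-housed CBP-ifKOs. In EE its share was between 63.2% and 65.2% in controls and between 57.8% and 58.2% in CBP-ifKOs. The share of Apba1 was between 27.7% and 29.5% in the controls of both housings and between 30.3% and 33.2% in the CBP-ifKOs. That of Apba3 was between 6.42% and 8.41% in controls and between 8.54% and 10.4% in CBP-ifKOs, although neither gene passed in CPM. Apbb1 made up between 77.5% and 80.5% of the Fe65 family in SC-housed controls and between 74.7% and 75.5% in SC-housed CBP-ifKOs, and in EE between 77.6% and 79.8% and between 73.6% and 75.1%. The share of Apbb3 was between 11.7% and 13.4% in SC-housed controls against between 16.1% and 16.3% in SC-housed CBP-ifKOs, and between 12.6% and 13.9% against between 16.01% and 17.4% in EE, where the CPM of Apbb3 overlapped between genotypes. The share of Apbb2 overlapped in SC and was between 6.96% and 8.52% in controls against between 8.85% and 8.996% in CBP-ifKOs in EE. In the precursor family the shares of App and Aplp1 overlapped between genotypes in both housings. The share of Aplp2 overlapped in SC and was between 13.3% and 14.2% in controls against between 14.3% and 14.8% in CBP-ifKOs in EE, but with deposited lengths it overlapped in EE too, between 15.9% and 17.3% against between 17.1% and 18.1%.

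The summed level of 4 markers of excitatory neurons was between 1621 and 1860 CPM in SC-housed controls and between 1618 and 1730 CPM in SC-housed CBP-ifKOs. In EE it was between 1749 and 1908 CPM in controls and between 1595 and 1727 CPM in CBP-ifKOs. Of these 4 markers Wfs1, a gene of CA1 pyramidal cells, passed in both housings with log2 changes of -0.72 and -0.999, and Slc17a7, Neurod6 and Prox1 passed in neither with edgeR, whereas DESeq2 also called Neurod6 in SC. Of the 20 markers of inhibitory neurons, astrocytes, oligodendrocytes, microglia and endothelial cells, edgeR called none in either housing (3 in SC and 2 in EE had an unadjusted p below 0.05) and DESeq2 called Cldn5 in SC and Csf1r in EE. Over all genes tested, 3593 of 17532 in SC and 3448 of 17625 in EE had an unadjusted p below 0.05 in edgeR. The part of these markers in the changes of Apba2 and Apbb1 was not tested. Microglial markers summed to between 224 and 227 CPM in SC-housed controls and between 199 and 220 CPM in SC-housed CBP-ifKOs, and to between 212 and 229 against between 191 and 196 CPM in EE. In SC the sums of CBP-ifKOs also lay below those of all controls for inhibitory neurons (between 637 and 664 against between 686 and 722 CPM), astrocytes (between 718 and 736 against between 765 and 807 CPM), endothelial cells (between 121 and 135 against between 141 and 149.6 CPM) and the choroid plexus (between 34.9 and 38.1 against between 46.5 and 53.1 CPM). In EE the sums of these 4 lists overlapped between genotypes, and those of oligodendrocytes overlapped in both housings. Ttr, a transport protein gene of the choroid plexus, passed in SC with edgeR and DESeq2 (log2 change -1.70, adjusted p = 2.2e-05 by edgeR) and in EE with neither. Without the EE control that was rich in choroid plexus RNA, the log2 changes in EE were -0.45 for Apba2 (adjusted p = 0.0027 by edgeR) and -0.30 for Apbb1 (adjusted p = 0.0497 by edgeR).

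Housing was compared within each genotype in a fit of all 12 mice with 18251 genes. In controls none of the 9 genes passed the threshold in edgeR, as none of all genes did (0%), and none had an unadjusted p below 0.05, against 768 of all genes. DESeq2 also called none of the 9, and 15 of all genes. Log2 changes with EE in controls were between -0.10 for Apba3 and 0.12 for Apbb3, and the 95% intervals of the 9 genes together ran from -0.31 to 0.26. In CBP-ifKOs none of the 9 passed in edgeR or DESeq2, against 0.0110% of all genes in edgeR, and 1 had an unadjusted p below 0.05, against 1567 of all genes. That gene was Apba2, with a log2 change of -0.12 (95% interval from -0.22 to -0.02) and an adjusted p of 0.514 by edgeR. Its 3 CBP-ifKOs in EE all lay below the 3 in SC, as did those of 8.01% of all genes, and Aplp2 lay above in all 3, as did 7.90%.

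The interaction asks whether the genotype change differed between housings. None of the 9 genes passed in edgeR or DESeq2, as none of all genes did (0%), and 1 of the 9 had an unadjusted p below 0.05 in each, with 574 of all genes in edgeR. For Apba2 the difference was -0.17 on the log2 scale (95% interval from -0.31 to -0.02, SE 0.0690), with an adjusted p of 0.9998 by edgeR. For Apbb1 it was -0.07 (95% interval from -0.24 to 0.11). The larger Apba2 change in EE was therefore not separated from that in SC after adjustment.

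**Figure D4:**
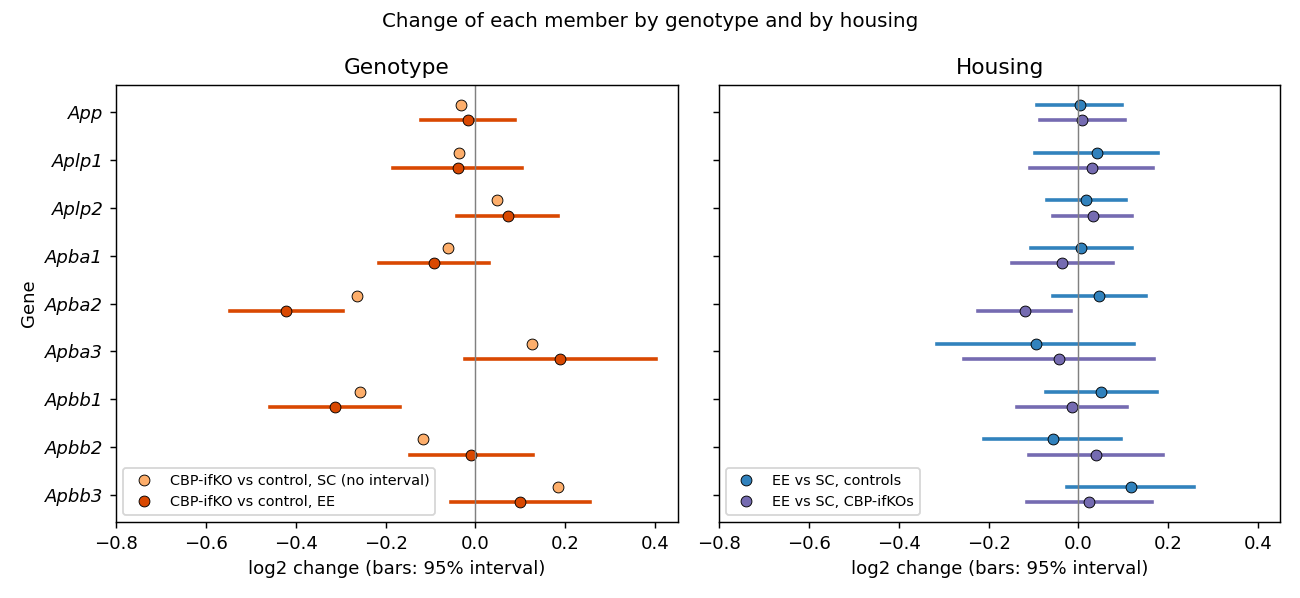
Log2 change of each gene with genotype (left, SC as points and EE with 95% intervals) and with housing (right, with 95% intervals). In EE the genotype intervals of Apba2, from -0.55 to -0.29, and Apbb1, from -0.46 to -0.17, lie below 0, and every housing interval but that of Apba2 in CBP-ifKOs, from -0.22 to -0.02, holds 0. The intervals do not account for the choice of the genes, made with values of both housings known.

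Genes that process, bind or move APP were read from 4 lists of 37 genes, chosen with earlier results known and not for how their members moved. None of the 11 secretase genes, which include Bace1, the beta-secretase, and the gamma-secretase subunits Psen2, Ncstn and Psenen, passed in SC or EE with edgeR or DESeq2. Of these 11 genes, 1 in each housing had an unadjusted p below 0.05 in edgeR, against 3593 of 17532 genes in SC and 3448 of 17625 in EE. The median log2 change of the 11 genes was 0.09 in SC and 0.05 in EE. Of 10 partners of the adaptors, 1 rose and 1 fell in SC, and none passed in EE with edgeR, where 3 had an unadjusted p below 0.05 and DESeq2 called Clstn2 and Lin7b. Clstn2, a calsyntenin of the synaptic membrane, was at 173 ± 2.61 CPM (SD, n = 3) in SC-housed controls and 138 ± 1.497 CPM in CBP-ifKOs, with a log2 change of -0.32 in SC and -0.29 in EE, where its adjusted p was 0.054 by edgeR. Its call in SC was kept whichever of the 6 mice was left out. Tfcp2, a transcription factor bound by Fe65, was at 29.5 ± 0.485 CPM in SC-housed controls and 34.9 ± 0.495 CPM in CBP-ifKOs, with a log2 change of 0.25 in SC and 0.17 in EE, where its adjusted p was 0.205 by edgeR. Its call in SC was lost in 5 of 6 fits with a mouse left out, all but that without control replicate 2, with log2 changes between 0.24 and 0.27 and adjusted p between 0.0941 and 0.122 by edgeR. It was also lost with the replicate number as a block (adjusted p = 0.052) and without a filter (adjusted p = 0.0572). Lin7b, whose protein binds Cask and which was named after its values were seen, had a log2 change of -0.19 in SC, and of -0.34 in EE with an adjusted p of 0.0926 by edgeR. Kat5 and Cask passed in neither housing. The median of the 10 partners was -0.0027 in SC and -0.05 in EE.

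The 5 other genes whose products bind the APP tail, Dab1, Mapk8ip1, Mapk8ip2, Numb and Numbl, passed in neither housing with edgeR, and DESeq2 called Numbl in EE. With edgeR 2 of the 5 in SC and 3 in EE had an unadjusted p below 0.05, against 3593 of 17532 genes in SC and 3448 of 17625 in EE. The medians of the 5 genes were -0.04 in SC and -0.18 in EE. Of 11 genes of trafficking and clearance, Itm2c fell in both housings. Itm2c encodes a membrane protein that binds APP. It was at 859 ± 54.5 CPM in SC-housed controls against 729 ± 32.5 CPM in CBP-ifKOs, and at 852 ± 43.0 CPM in EE-housed controls against 675 ± 6.79 CPM in CBP-ifKOs. Its log2 change was -0.22 in SC and -0.31 in EE, with an adjusted p of 0.00971 in EE by edgeR. Its call in SC was lost in 5 of 6 fits with a mouse left out, all but that without control replicate 2 (log2 changes between -0.25 and -0.19, adjusted p between 0.0977 and 0.182). Its call in EE was lost without control replicate 3 (log2 change -0.27, adjusted p = 0.0545) or CBP-ifKO replicate 3 (log2 change -0.31, adjusted p = 0.0645). Sorl1, Lrp1, Apoe, Clu, Ide and Mme did not pass in either housing, and the median of the 11 genes was -0.09 in SC and -0.06 in EE. Over all 4 lists 3 of 37 genes passed in SC and 1 of 37 in EE with edgeR, beside 5.52% and 4.57% of all genes. With DESeq2 3 of 37 passed in SC and 4 of 37 in EE, beside 1300 of 17532 and 1296 of 17625 genes. These counts are no result about the lists. None of the 37 passed in a housing comparison or in the interaction with edgeR or DESeq2. By housing in CBP-ifKOs 1 of the 37 had an unadjusted p below 0.05 in edgeR, against 1567 of 18251 genes, and none did elsewhere.

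**Figure D5:**
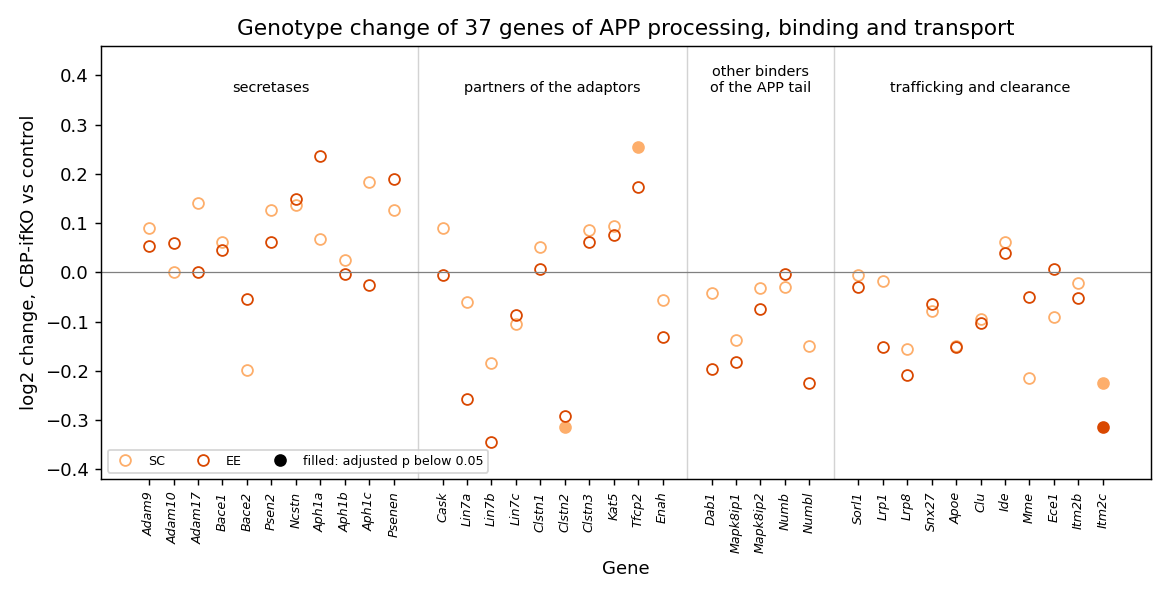
Log2 change with genotype of the 37 genes in 4 lists, in SC (light orange) and EE (dark orange), filled where the adjusted p was below 0.05. Clstn2 and Tfcp2 are filled in SC, and Itm2c in both housings.

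The genes closest in pattern were sought over log2 CPM of the 12 mice for the member of each family with the highest level per deposited length. The points share genotype, housing and library, so the correlations are given as a description across 18250 other genes. Apba2 was closest to Camkk2 (r = 0.981), a kinase of the calmodulin pathway, Nsf (r = 0.976), an ATPase of vesicle fusion, and Cacna1g (r = 0.976), a calcium channel gene. With the group means removed, these values were 0.487, 0.415 and 0.715. Apbb1 was closest to Ctxn1 (r = 0.995), Efhd2 (r = 0.984) and Stmn2 (r = 0.982), a gene of microtubule dynamics in neurons, and with the group means removed the values were 0.972, 0.928 and 0.873. Aplp1 was closest to Zfp771 (r = 0.979), Otub1 (r = 0.949) and Ube2m (r = 0.949), with 0.979, 0.957 and 0.949 after the group means were removed. Values with the group means removed were higher for the genes near Apbb1 and Aplp1 than for those near Apba2.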

How the data were processed

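Hippocampal RNA-seq of 12 mice was analyzed from 1 table of counts. The deposited table holds raw counts, which the authors obtained from 50 nt single-end reads with Trim Galore 0.6.4, STAR 2.6.1 on mm10, a mapping quality filter, and Rsubread on Ensembl exons, with the 2 runs of a mouse merged. The strand setting is not given in the sources used here. Each mouse was 1 replicate, and within groups no pair of libraries was identical (chi-square per degree of freedom between 3.05 and 18.5 over 12 pairs, CBP-ifKO counts halved).

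Groups came from the sample titles. edgeR 4.0.16 in R 4.3.3 (default expression filter, TMM, quasi-likelihood F test, Benjamini-Hochberg adjustment over all genes, threshold 0.05) compared genotypes in the 6 mice of each housing, and housing and the interaction in all 12 mice. The study used DESeq2 1.30.1. CPM are TMM-scaled over 12 mice, and a floor of 3 counts equals between 0.0772 and 0.116 of these CPM, for counting error only and counts as deposited. The deposited length is a value of the annotation. Positions and principal transcripts are from GENCODE M21 and promoters from RefSeq. The genotype fit in SC alone was also run on simulated counts, from which nothing is drawn here. The simulation did not make the CBP-ifKO counts all even.

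The members and lists were chosen with earlier results of these data known, and Apba2 and Apbb1 are in a gene list that the study built partly on the SC-housed mice, so their values in SC carry no p. Values in EE were known at the choice too, so the p-values and intervals given there are no independent test. Named were all 9 members, list genes past the threshold (at most 3 per direction and list), the 3 genes most correlated (log2 CPM, prior count 2) with the leading member of each family, and Crebbp and Ep300. Other genes are named as list members or after their values were seen, such as Wfs1, Neurod6, Cldn5, Csf1r, Ttr, Lin7b and Numbl. Alternatives were DESeq2 1.42.0, its size factors, no filter, a minimum of 1 CPM in 3 mice, replicate numbers as a block, halved CBP-ifKO counts, other mice in the fit, and each mouse left out. Some genes of the lists are not reported here and are left out of their counts and medians.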

Additional observations from a re-analysis of the deposited data

How the results depend on the processing

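With the replicate number as a block, Apba2 and Apbb1 were again the members past the threshold in SC and in EE (2 of 9 in each) and none of the 9 passed by housing or for the interaction (0 in each). The numbers were not taken to pair the mice, since they come with no shared source and not every pair of controls and CBP-ifKOs correlated above 0.1 (1 of 3 in SC and 2 of 3 in EE). As a hint of pairing from the data, 6 of 6 mice in EE correlated best with their own number, against 3 of 6 in SC. These are not 6 separate observations, since each housing has 3 pairs, each counted from both sides, of deviations from group means. Controls of the 2 housings with the same number correlated at 0.191, 0.305 and 0.0335. DESeq2, its size factors, both filters, halved CBP-ifKO counts and other mice in the fit also kept these 2 genes. When a mouse was left out, between 0 and 2 members passed in SC and between 1 and 2 in EE. In SC both were lost without any 1 CBP-ifKO, and Apbb1 without control replicate 1 or 3. Over all 6 such fits in SC, including those that kept the calls, log2 changes were between -0.29 and -0.23 for Apba2 and between -0.30 and -0.22 for Apbb1. In EE Apba2 stayed past the threshold in all 6 such fits (log2 changes between -0.45 and -0.40). Log2 changes under the alternatives were followed for all 9 genes by genotype, but only for Apba2 and Apbb1 by housing and for the interaction. Among these, directions turned in small changes only, with ranges over the mice left out from -0.057 to 0.015 for App and from -0.10 to 0.018 for Aplp1 in SC, from -0.035 to 0.010 for App, from -0.10 to 0.0025 for Aplp1 and from -0.039 to 0.015 for Apbb2 in EE, and from -0.026 to 0.0044 for Apbb1 by housing in CBP-ifKOs. Each such fit has 1 mouse fewer, and no other cause was tested. Some changes kept their direction but moved in size over all alternatives. Apba3 ran from 0.027 to 0.21 in SC and from 0.13 to 0.27 in EE, Apbb2 from -0.17 to -0.035 in SC, and Apbb3 from 0.049 to 0.14 in EE. For the interaction Apbb1 ran from -0.12 to -0.017.

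Over all genes, the number past the threshold in SC was 968, against 1512 without a filter and between 399 (without CBP-ifKO replicate 2) and 1908 (without control replicate 2) when a mouse was left out. In EE it was 805, against 1296 with DESeq2, 1677 without a filter, 1293 with all 12 mice in the fit and between 285 and 1016 with a mouse left out. By housing in CBP-ifKOs it was 2, against 54 with DESeq2, 17 with the block, 21 in the 6 CBP-ifKOs alone and 247 without a filter, and in controls 0, against 15 with DESeq2 and 145 without a filter. With a mouse left out it was between 0 and 10 in CBP-ifKOs and between 0 and 5 in controls. The interaction had 0, and 110 without a filter. Pathway genes past the threshold numbered 3 in SC, against 2 with the block or without a filter and between 1 and 5 with a mouse left out. In EE they numbered 1, against 3 with the block, 5 without a filter, 4 with DESeq2 or all 12 mice in the fit, 2 with DESeq2 size factors or the filter of 1 CPM, and between 0 and 2 with a mouse left out.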
